A study of Rattus norvegicus with 18 samples.

Results

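Metallothioneins are small cysteine-rich proteins that bind zinc and copper, and their genes are known to be switched on by metals, glucocorticoids and inflammatory cytokines. The 6 genes described here are the metallothionein genes Mt1, Mt1m and Mt2A, the zinc importer gene Slc39a14, the zinc exporter gene Slc30a1 and Mtf1, the gene of the zinc-sensing transcription factor. They were chosen by gene symbol, and each matched 1 row, so they are 6 of the 32883 rows of the deposited expression table. RNA had been measured in microdissected cortical collecting ducts, the last tubule segments of the kidney cortex, where the water, salt and acid content of urine is adjusted, from male Sprague Dawley rats 3 h after an intraperitoneal dose of lipopolysaccharide (LPS), a component of the bacterial outer membrane, or of normal saline as Vehicle. Each group had 3 numbered samples, sequenced as 3 libraries each, 18 libraries in all, and the treatment protocol calls the groups paired. The labels give neither the age of the rats, the LPS dose nor what a numbered pair shared. They do not state that each numbered sample was its own animal, so p-values measure only the spread between these samples.

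Cells hold free zinc at very low levels. Zinc enters the cytosol through the ZIP transporters, encoded by the Slc39 genes, and leaves it, to the outside or into organelles, through the ZnT transporters, encoded by the Slc30 genes. When zinc rises, the factor MTF-1 binds metal response elements in front of its target genes, of which the metallothionein genes and Slc30a1 are the classic examples. ZIP14, the product of Slc39a14, carries zinc, iron and manganese and is known in the liver as an acute phase gene.

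The values are TPM, the share of transcripts estimated for a gene, scaled to the same total in each library, an abundance divided by transcript length, which allows levels of different genes to be compared but keeps no read number, so the depth is unknown. A library listed from 11932 to 12704 rows at 1 TPM or more in Vehicle and from 11399 to 11841 in LPS. The tissue label was checked against 12 markers of principal cells, which take up sodium and water in this segment. These summed to between 17312 and 18992 TPM in Vehicle and between 9792 and 13533 TPM in LPS. By limma 9 of 12 were called lower, 1 after median-ratio scaling and 6 after quantile normalization. Of the 12393 rows tested, 22.2% were called lower, and 460 and 562 rows under these scalings. By contrast, 12 markers of proximal tubule summed to between 23.1 and 82.1 TPM over the 6 samples. On the first principal component, with 56.1% of the variance, the LPS 1 libraries scored 11.6 to 21.2, between those of Vehicle (-63.1 to -42.9) and of the other LPS samples (62.1 to 74.8). By their correlation with libraries of the same sample, 1 library stood apart, Vehicle 3 library 1 (mean r = 0.953 across genes, against 0.956 to 0.977 for the others).

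The promoters of 4 genes are shown because these genes sit close together or share a regulator and differed in their response below. Mt1, Mt2A, Mt3 and Mt4 are consecutive genes on chromosome 19 of the RefSeq assembly GRCr8. Slc30a1 lies on chromosome 13. Capitals mark each match to the core of the metal response element, searched as TGCACNC or TGCGCNC on both strands, with no overlap between matches. Each run is the 250 bases before the RefSeq transcript start, read 5′ to 3′ on the gene's strand. The windows are Mt1 at chr19:10832976-10833225 (minus strand), Mt2A at chr19:10838709-10838958 (minus strand), Mt3 at chr19:10856081-10856330 (minus strand) and Slc30a1 at chr13:106021769-106022018 (plus strand), all in GRCr8, a later assembly than the Rnor_6.0 of the expression table.
Mt1: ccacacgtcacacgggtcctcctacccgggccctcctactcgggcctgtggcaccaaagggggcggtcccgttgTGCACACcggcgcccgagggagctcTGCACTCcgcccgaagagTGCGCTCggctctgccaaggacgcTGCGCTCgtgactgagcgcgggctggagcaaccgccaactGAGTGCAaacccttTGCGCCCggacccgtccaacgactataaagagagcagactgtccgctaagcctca
Mt2A: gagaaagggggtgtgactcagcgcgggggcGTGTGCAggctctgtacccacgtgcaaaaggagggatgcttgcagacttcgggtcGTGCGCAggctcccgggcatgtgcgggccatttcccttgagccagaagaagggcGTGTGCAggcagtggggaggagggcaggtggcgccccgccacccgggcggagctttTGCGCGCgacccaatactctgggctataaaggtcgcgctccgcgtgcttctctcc
Mt3: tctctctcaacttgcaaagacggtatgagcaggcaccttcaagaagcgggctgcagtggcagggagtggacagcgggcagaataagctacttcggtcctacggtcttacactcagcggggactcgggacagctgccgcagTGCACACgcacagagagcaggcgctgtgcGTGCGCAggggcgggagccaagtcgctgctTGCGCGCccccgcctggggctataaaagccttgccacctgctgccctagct
Slc30a1: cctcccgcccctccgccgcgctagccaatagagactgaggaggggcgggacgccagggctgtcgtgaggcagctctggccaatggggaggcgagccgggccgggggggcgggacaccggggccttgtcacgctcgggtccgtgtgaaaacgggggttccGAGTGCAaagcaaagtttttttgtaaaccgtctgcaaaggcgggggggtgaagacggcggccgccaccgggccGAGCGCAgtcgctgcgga

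The Mt1 window held 6 matches to the core, the Mt2A window 4, the Mt3 window 3 and the Slc30a1 window 2. Of 33469 promoter windows of the same length, 20.6% held at least 1 match, 4.90% at least 2, 1.17% at least 3, 0.266% at least 4 and 0.0269% at least 6. The Mtf1 window also held 2. The motif TTCNNNGAA, bound by STAT factors, was in none of the 4 windows and in 7.67% of all windows, and TGACNNNGC, the core of the antioxidant response element, was found 1 time in each of the Mt1, Mt2A and Slc30a1 windows, 0 times in Mt3 and in 10.1% of all windows. A match is a description of the letters and not a binding site, and a missing match says nothing of sites outside the window. Promoters of Mt1m and Slc39a14 are not shown.

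After LPS the ducts carried many times more metallothionein RNA, while Slc30a1 RNA was lower and Mtf1 was not called. Mt1, Mt1m and Mt2A rose 9.03-, 14.8- and 13.3-fold in mean TPM, Slc30a1 fell to 0.503 of its Vehicle level, Slc39a14 stood between 0.523 and 1.61 TPM, and Mtf1 overlapped between groups. Of the 6 genes, 5 had a mean of at least 1 TPM over the 18 libraries and were tested with limma on log2(TPM + 1) with the sample number as a block and Benjamini-Hochberg adjustment. Of these, 3 were called higher and 1 lower at an adjusted p under 0.05, against 7.17% of the 12393 rows tested called higher and 22.2% called lower (29.4% in either direction).

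**Figure D1:**
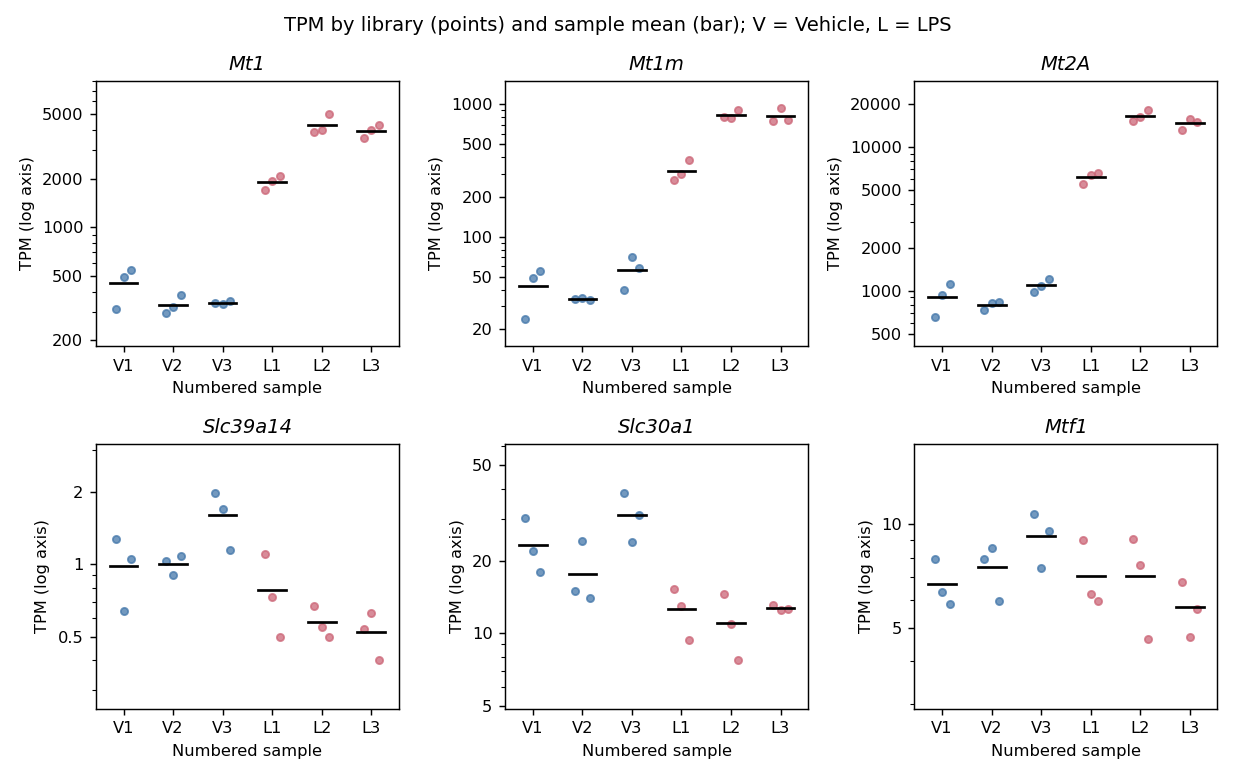
TPM of the 6 genes on log axes with a range of its own in each panel, by numbered sample; points are the 3 libraries of a sample and bars their mean, Vehicle in blue and LPS in red. The 3 metallothionein genes are higher in every LPS library than in every Vehicle library, with LPS 1 lowest of the LPS samples, while the Mtf1 samples overlap.

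Mt2A (ENSRNOG00000043098), the major metallothionein gene here, stood at 904, 800 and 1091 TPM in Vehicle 1, 2 and 3 and at 6168, 16414 and 14610 TPM in LPS 1, 2 and 3. All LPS samples lay above all Vehicle samples, and LPS 1 was well below the other LPS samples. It ranked 149th of all rows by mean TPM in Vehicle and 3rd in LPS. Its log2 difference was 3.63 (SE 0.260, 95% interval 3.02 to 4.25, limma adjusted p = 0.000552).

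Mt1 (ENSRNOG00000038047), its neighbour in the genome, had 452, 331 and 342 TPM in the Vehicle samples and 1897, 4297 and 3963 TPM in the LPS samples. The groups were again separate, with LPS 1 the lowest LPS sample. It moved from rank 436 to rank 34, with a log2 difference of 3.11 (SE 0.291, 95% interval 2.42 to 3.80, limma adjusted p = 0.00151).

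Mt1m (ENSRNOG00000028841) carries no annotation line in the table, and RefSeq lists the rat gene of this symbol as a pseudogene on chromosome 20, away from the metallothionein cluster. Its row stood at 42.7, 34.1 and 56.0 TPM in Vehicle and at 313, 831 and 817 TPM in LPS, in the same order of samples as Mt2A in LPS. The log2 difference was 3.78 (SE 0.292, 95% interval 3.09 to 4.48, limma adjusted p = 0.000692). RSEM divides reads among near-identical transcripts by estimate, so how much of this row is its own RNA and how much belongs to Mt1 or Mt2A was not tested, and the split between the 3 rows is uncertain.

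The sum of the 3 rows, which such a division moves less, was 1399, 1165 and 1489 TPM in Vehicle 1 to 3 and 8379, 21542 and 19390 TPM in LPS 1 to 3. The increase was 5.99-fold in pair 1, 18.5-fold in pair 2 and 13.0-fold in pair 3, and 12.2-fold between the group means. As a share of all TPM, the Vehicle samples had 0.135% ± 0.0167 and the LPS samples 1.64% ± 0.706 (SD, n = 3). Without replicate 1 the fold was 15.4 and without replicate 2 it was 9.62, so the size depends on the pair. This sum was given no test.

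The proportions of the 3 rows also differed between the groups. The Mt2A to Mt1 ratio was 2.00, 2.42 and 3.19 in Vehicle and 3.25, 3.82 and 3.69 in LPS, and Mt1m amounted to 9.45%, 10.3% and 16.4% of Mt1 in Vehicle and 16.5%, 19.3% and 20.6% in LPS. In both measures the LPS samples lay above the Vehicle samples, with Vehicle 3 and LPS 1 close together. A two-sided exact permutation test over the samples, which did not keep the pairs, gave p = 0.10 for each (0.10 adjusted over the 3 such tests made). This is the smallest that 3 unpaired samples against 3 allow.

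**Figure D2:**
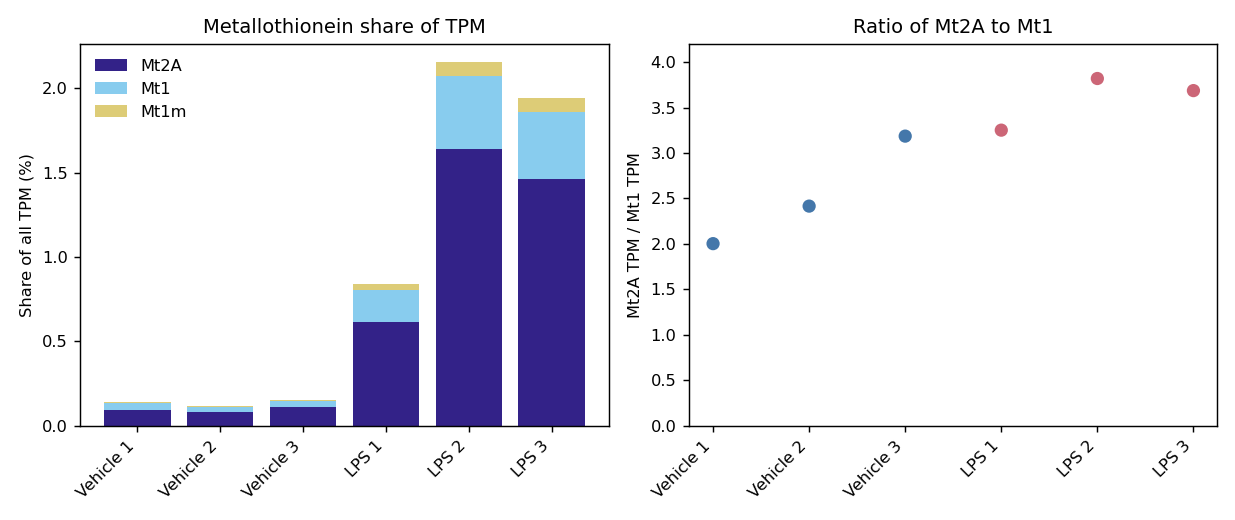
Left, the share of all TPM held by Mt2A, Mt1 and Mt1m in each sample as stacked bars; right, the ratio of Mt2A to Mt1 TPM in the same samples, Vehicle in blue and LPS in red. The share is 0.838% in LPS 1 and 2.15% in LPS 2, above the 0.116% to 0.149% of the Vehicle samples, and the ratio runs from 2.00 in Vehicle 1 to 3.82 in LPS 2.

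Of the other metallothionein genes on the list, 2 had a row. Mt3 (ENSRNOG00000018958), known as a growth inhibitory metallothionein of brain and poorly induced by metals, stood at 112, 212 and 119 TPM in Vehicle and 56.9, 60.6 and 156 TPM in LPS. The groups overlapped through LPS 3, and Mt3 was not called, at -0.78 (SE 0.369, 95% interval -1.66 to 0.09, limma adjusted p = 0.134). Pairs 1 and 2 were lower with LPS, by -0.95 and -1.78, and pair 3 higher, by 0.38. Mt4, the next gene along and known from squamous epithelium, was listed at 0 in all 18 libraries.

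Mtf1 (ENSRNOG00000050240) had 6.72, 7.48 and 9.24 TPM in Vehicle and 7.07, 7.09 and 5.73 TPM in LPS. The samples overlapped, and the difference of -0.21 (SE 0.227, 95% interval -0.75 to 0.32, limma adjusted p = 0.466) was not called. Its sign turned when libraries were scaled otherwise, to 0.15 by median ratios and to 0.18 by quantiles, and neither was called. The median log2 change of all tested rows was -0.38, or -0.01 and -0.13 under those scalings, so a value near -0.38 is that of a typical row.

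Slc30a1 (ENSRNOG00000004749) encodes ZnT1, the zinc exporter of the plasma membrane and, like the metallothionein genes, a textbook MTF-1 target. It stood at 23.4, 17.7 and 31.2 TPM in Vehicle and at 12.6, 11.1 and 12.7 TPM in LPS. The groups did not overlap, and the LPS samples were close to each other, unlike the metallothionein genes. Its log2 difference was -0.89 (SE 0.203, 95% interval -1.37 to -0.41, limma adjusted p = 0.0242), lower in all 3 pairs at -0.84, -0.63 and -1.21. The call ended with median-ratio scaling (-0.50, adjusted p = 0.0883) and quantile normalization (-0.55, adjusted p = 0.0732), so the fall beyond that of a typical row did not pass the test. It also ended without replicate 2 (adjusted p = 0.128), without replicate 3 (0.281), with the median library (0.1005) and with no filter (0.103), which leaves 8 of 14 alternatives with a call. Of the tested rows 47.1% had 3 LPS samples below the 3 Vehicle samples.

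Slc39a14 (ENSRNOG00000009832) was barely present, at 0.987, 1.00 and 1.61 TPM in Vehicle and 0.780, 0.573 and 0.523 TPM in LPS. The LPS samples were below the Vehicle samples without overlap. Its mean of 0.913 TPM over the 18 libraries was under the 1 TPM minimum, so it was left out of that test, and with no filter its difference of -0.43 had a limma adjusted p = 0.216. The size depends on the scale, at -0.24 after median-ratio scaling, -0.22 after quantile normalization, -0.14 with a pseudocount of 5 and -0.83 with one of 0.1. A two-sided exact permutation test over the samples, which did not keep the pairs, gave p = 0.10, the smallest possible. In the library that stood apart, Vehicle 3 library 1, Slc39a14 (1.99 TPM), Slc30a1 (38.4 TPM) and Mtf1 (10.7 TPM) were at their highest over the 18 libraries. Without it the differences were -0.39, -0.84 (adjusted p = 0.0409) and -0.18.

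In Vehicle the levels ran in the order Mt2A, Mt1, Mt1m, Slc30a1, Mtf1 and Slc39a14, and the order was the same in LPS. No neighbours in this order overlapped between their 3 samples within either group. Libraries of 1 sample differed by at most 1.69-fold in Mt2A, 1.75-fold in Mt1 and 2.28-fold in Mt1m, and by at most 2.22-fold in Slc39a14, 1.87-fold in Slc30a1 and 1.95-fold in Mtf1. These largest ratios were small beside the metallothionein changes between means, larger than the Mtf1 difference (1.18-fold between means), and close to the differences in Slc30a1 and Slc39a14. They are extremes of single libraries and do not measure the error of a difference between group means.

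The calls of the 3 metallothionein genes ended in 3 of 14 alternatives with sizes hardly changed. Without replicate 3 Mt2A stood at 3.58 (adjusted p = 0.196), Mt1 at 2.90 (adjusted p = 0.219) and Mt1m at 3.74 (adjusted p = 0.196), in a fit of 2 pairs in which limma called 0 rows (738 higher and 1463 lower at an unadjusted p under 0.05). Taking the median library of each sample gave Mt2A an adjusted p = 0.0568, Mt1 0.0688 and Mt1m 0.0639, and dropping the filter gave 0.0581, 0.0692 and 0.0559. Over the 14 alternatives Mt2A ranged from 3.27 to 4.05.

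**Figure D3:**
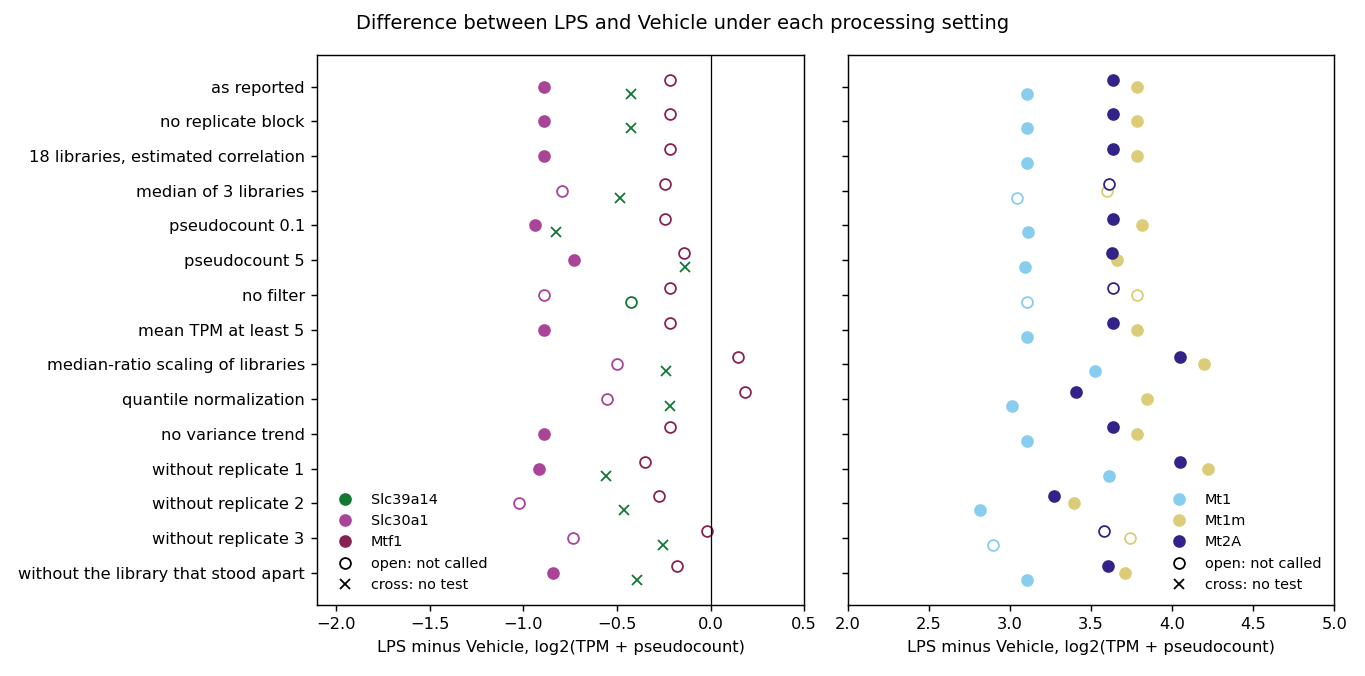
Log2 difference between LPS and Vehicle for each gene (horizontal axis) under each processing setting (rows), the transporter and Mtf1 genes at left and the metallothionein genes at right; filled points were called at an adjusted p under 0.05 by limma, open points were not, and crosses had no test. The metallothionein genes keep values between 2.81 and 4.22, Slc30a1 runs from -1.02 to -0.50, and Mtf1 crosses 0 under median-ratio scaling and quantile normalization.

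The zinc transporter families as a whole were expressed at moderate levels and differed in direction from gene to gene. Of 14 Slc39 genes with a row, 8 were tested, of which 1 was called higher and 2 lower, and of 10 Slc30 genes 7 were tested, of which 2 were called higher and 1, Slc30a1, lower. That is 20.0% of the 15 tested transporters higher and 20.0% lower, beside 7.17% and 22.2% of all rows. Under either other scaling 0 were lower and 1 of each family higher. Of the 12393 rows, median-ratio scaling called 854 higher and 460 lower, and quantile normalization 800 and 562. The median change of the 15 transporters was -0.54, beside -0.38 over all rows. In 3 of the 15 all LPS samples were above all Vehicle samples and in 11 they were below, beside 9.82% and 47.1% of all rows.

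Slc39a1, the gene of the plasma membrane importer ZIP1, was the importer called higher. It stood at 4.25, 5.69 and 3.72 TPM in Vehicle and 8.83, 14.0 and 12.3 TPM in LPS. The groups were separate and the difference was 1.20 (SE 0.220, limma adjusted p = 0.0145), called also with median-ratio scaling (1.56, adjusted p = 0.0281) and quantile normalization (1.56, adjusted p = 0.0257). It was called in 10 of 14 alternatives, and not without replicate 2 (adjusted p = 0.114), without replicate 3 (0.263), with the median library (0.0838) or with no filter (0.101).

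Slc39a13, the gene of ZIP13, a transporter of the secretory pathway, had 41.2, 44.3 and 42.7 TPM in Vehicle and 32.4, 14.1 and 17.5 TPM in LPS. LPS 1 was again the sample nearest to Vehicle, and the difference was -1.06 (SE 0.263, limma adjusted p = 0.0296). Slc39a6, the gene of the plasma membrane importer ZIP6, went from 6.42 ± 0.807 to 3.32 ± 0.347 TPM (SD, n = 3), at -0.77 (adjusted p = 0.0400). Neither fall was called under median-ratio scaling (-0.66 and -0.44) or quantile normalization (-0.77 and -0.38).

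The remaining 5 tested Slc39 genes were not called. The most abundant was Slc39a7, the gene of ZIP7, which releases zinc from the endoplasmic reticulum, with a Vehicle mean of 86.9 ± 14.3 and an LPS mean of 56.5 ± 7.58 TPM (SD, n = 3, log2 -0.58, limma adjusted p = 0.0709). Slc39a9, Slc39a10, Slc39a3 and Slc39a11 stood at 37.8, 13.5, 16.0 and 11.0 TPM in Vehicle and 30.5, 8.62, 10.2 and 8.18 TPM in LPS. Slc39a10, the gene of ZIP10 and known to be repressed through MTF-1, had -0.59 (adjusted p = 0.0566). Slc39a8, the gene of ZIP8, the importer most like ZIP14, was under the minimum at a mean of 0.704 TPM, with 0.153, 0.157 and 0.280 TPM in Vehicle and 0.607, 1.36 and 1.67 TPM in LPS, higher in each pair. Slc39a2, Slc39a4, Slc39a5 and Slc39a12 had group means of 0.333 TPM or less.

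Among the exporters, Slc30a3, the gene of ZnT3, known for loading zinc into synaptic vesicles, had 3.73, 3.94 and 2.91 TPM in Vehicle and 6.23, 10.2 and 9.15 TPM in LPS. The groups did not overlap. The difference was 1.06 (SE 0.241, limma adjusted p = 0.0246), and it was called with median-ratio scaling (1.40, adjusted p = 0.0414) and quantile normalization (1.43, adjusted p = 0.0378). The same 4 alternatives ended its call, with adjusted p = 0.171, 0.281, 0.0819 and 0.114.

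Slc30a7, the gene of ZnT7, which moves zinc into the early secretory pathway, had 14.7, 14.5 and 17.0 TPM in Vehicle and 17.3, 37.0 and 32.9 TPM in LPS. LPS 1 stood just above Vehicle 3, and LPS 2 and LPS 3 well above it. The difference of 0.80 (SE 0.243, adjusted p = 0.0470) passed narrowly and was not called under median-ratio scaling (1.20, adjusted p = 0.0630) or quantile normalization (1.11, adjusted p = 0.0575), and in 4 of 14 alternatives it was called. Slc30a5 and Slc30a6, whose products work together in the same compartment, went from 37.7 ± 1.86 to 25.9 ± 4.60 TPM and from 33.7 ± 0.902 to 24.8 ± 4.97 TPM (SD, n = 3) and were not called, at -0.54 and -0.44. Slc30a9 had 64.5 ± 2.52 and 44.2 ± 7.92 TPM and was the most abundant exporter row, at -0.55 (limma adjusted p = 0.0554). Slc30a4 had 4.19 ± 0.579 and 3.75 ± 0.357 TPM and was not called (-0.13), and Slc30a2, Slc30a8 and Slc30a10 had group means of 0.488 TPM or less.

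Summed over all 14 genes, importer RNA was 203, 214 and 245 TPM in Vehicle and 172, 148 and 138 TPM in LPS. Exporter RNA over 10 genes was 182, 173 and 197 TPM in Vehicle and 155, 147 and 145 TPM in LPS. Both sums were lower in LPS without overlap, as were 47.1% of all tested rows, and they were not rescaled. Each was under the summed metallothionein level in every sample.

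**Figure D4:**
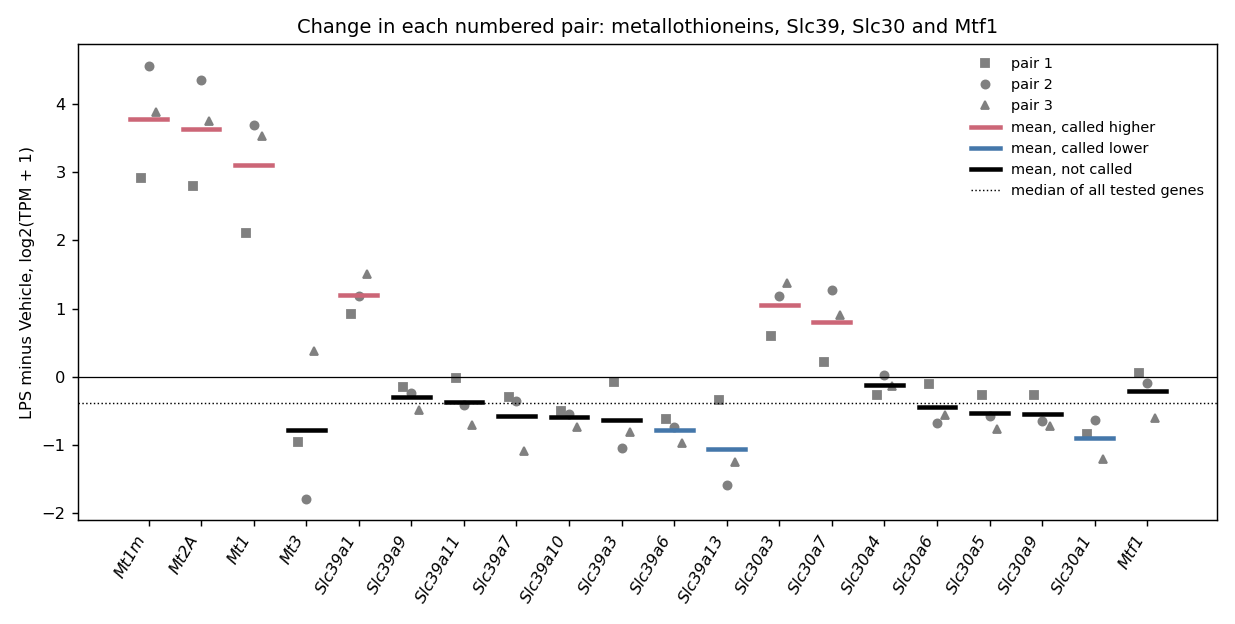
LPS minus Vehicle on the log2(TPM + 1) scale for the tested metallothionein, Slc39 and Slc30 genes and Mtf1; grey symbols are the 3 numbered pairs, bars their mean, red where called higher, blue where called lower and black where not called, and the dotted line is the median of all tested genes at -0.38. The 3 metallothionein genes stand apart at 3.11 to 3.78, with 3 transporters between 0.80 and 1.20 and most others near the dotted line.

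Beside the lists that follow, 7.17% of all tested rows were called higher and 22.2% lower without rescaling. Of the 12393 rows, median-ratio scaling called 854 higher and 460 lower, and quantile normalization 800 and 562. Of 11 genes known as MTF-1 targets 9 were tested, and 3 were called higher and 2 lower, with a median of 0.13, or 3 higher and 1 lower under either scaling. The 3 higher ones are the metallothionein genes themselves. The 2 lower ones are Slc30a1 and Slc40a1, the gene of the iron exporter ferroportin, which stood at 16.9, 14.0 and 13.5 TPM in Vehicle and 5.15, 2.43 and 2.22 TPM in LPS (log2 -1.96, SE 0.231, limma adjusted p = 0.00342, and -1.62 with median-ratio scaling, adjusted p = 0.0163). Gclc, which encodes a subunit of the enzyme that starts glutathione synthesis, had 0.13 (adjusted p = 0.528) and Selenow 0.73 (adjusted p = 0.153).

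Genes of transcription factors and receptors known to act on metallothionein genes by other routes made up another list. Of 14 such genes 13 were tested, with 6 called higher and 1, Hif1a, lower, beside 7.17% and 22.2% of all rows. Their median was 0.65, and under either scaling 6 were higher and 0 lower. Cebpd, the gene of an acute phase transcription factor, had 32.0, 23.5 and 20.2 TPM in Vehicle and 277, 490 and 425 TPM in LPS, separate in the groups and with LPS 1 the lowest LPS sample (log2 3.95, SE 0.253, limma adjusted p = 0.000399). Osmr, the receptor gene for oncostatin M, went from 5.73, 4.71 and 8.04 TPM to 49.9, 293 and 236 TPM. Cebpb, the gene of a related acute phase factor, rose by 2.32 (limma adjusted p = 0.00808). Stat3, which carries signals of the interleukin 6 family, rose by 1.28 (adjusted p = 0.0122), while Nr3c1, the glucocorticoid receptor gene, stood at -0.30 and was not called (adjusted p = 0.327).

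Copper and iron handling genes and Nrf2 targets, which respond to oxidative stress, were mixed. Of 16 tested copper and iron genes 3 were called higher and 3 lower, or 3 and 1 under either scaling, with a median of -0.20. Slc11a2, the gene of the metal importer DMT1, stood at 102, 137 and 154 TPM in Vehicle and 210, 329 and 276 TPM in LPS (log2 1.04, SE 0.153, limma adjusted p = 0.00752), and Cp, the ceruloplasmin gene, went from 0.928 ± 0.549 to 12.2 ± 9.45 TPM (SD, n = 3, log2 2.55, adjusted p = 0.00957). Tfrc, the transferrin receptor gene, was lower, at 7.25 ± 0.554 and 3.44 ± 1.20 TPM (log2 -0.93, adjusted p = 0.0308), and lost its call with median-ratio scaling (-0.60). Of 12 tested Nrf2 targets 2 were called higher and 3 lower, or 1 and 0 after median-ratio scaling, 1 and 1 after quantile normalization. Txnrd1, a thioredoxin reductase gene, had 57.9 ± 8.42 and 267 ± 158 TPM (log2 1.98, adjusted p = 0.0176), and Txn1, the thioredoxin gene, 490 ± 18.8 and 896 ± 210 TPM (log2 0.84, adjusted p = 0.0170). Txn1 kept its call with median-ratio scaling (adjusted p = 0.0441) and Txnrd1 did not (adjusted p = 0.0517). Osgin1 and Gsr, the glutathione reductase gene, were called lower, at -1.92 (adjusted p = 0.0186) and -0.64 (adjusted p = 0.0233), and neither was with median-ratio scaling, while Gsr was with quantile normalization (-0.62, adjusted p = 0.0358).

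Rows with a mean of at least 5 TPM were compared with 3 members by Pearson correlation of log2(TPM + 1) over the 18 libraries. Rows of lower level, such as those near Slc39a14, were not searched. The rows most like Mt2A were Mt1m (r = 0.996), Cxcl11, Irgm, Lcn2 and RT1-M3-1 (r = 0.993 to 0.995). The libraries of both groups enter this measure and come 3 to a sample. After each group's mean was taken off, the closest rows were Mt1m (r = 0.955), Acot9, Nampt, Pdzk1ip1 and Cxcl11 (r = 0.935 to 0.944). For Slc30a1 the closest rows by level were Api5, Lrrc58, Itch, Polr2a and Glce (r = 0.962 to 0.968), and for Slc39a14 Khsrp, Angel2, Glg1, Map3k3 and Preb (r = 0.911 to 0.937). After the group means were taken off they were, for Slc30a1, Ivns1abp, Itgav, Lin7c, AABR07026654.1 and Api5 (r = 0.937 to 0.959), and for Slc39a14 Khsrp, Angel2, Acvr1b and Glg1 (r = 0.822 to 0.866).

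In dissected tubules, fewer cells of a type and less RNA per cell cannot be told apart, and RNA of other cells can be carried along. Markers of monocytes and macrophages were called higher in 5 of 11 tested genes and lower in 1, again beside 7.17% and 22.2% of all rows. Summed over 13 markers they stood at 270, 130 and 196 TPM in Vehicle and 470, 287 and 224 TPM in LPS. LPS 1, the LPS sample nearest to Vehicle on the first principal component, had the highest macrophage sum and the lowest metallothionein level of the LPS samples. Whether these are linked was not tested. Of 10 neutrophil markers 2 were tested, S100a8 and S100a9, both called higher. Their Vehicle means were 0 and 0.0444 TPM and their LPS means 11.2 and 16.4 TPM. Both thus passed the 1 TPM minimum only through LPS libraries, the highest at 86.9 and 128 TPM. A call of higher was nearly fixed by that filter and is not to be read against the share over all rows. The sum over all 10 was 0.237 to 1.06 TPM in Vehicle and 2.24 to 80.0 TPM in LPS, with the highest value in LPS 3. That value rests on 1 library, LPS 3 library 3 at 223 TPM, without which LPS 3 stood at 8.46 TPM. Neither neutrophil marker was called under median-ratio scaling or quantile normalization.

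Of the other marker lists, intercalated cell markers, for the acid and base secreting cells, were called lower in 2 of 10 tested genes, and distal and connecting tubule markers in 2 of 5, with Pvalb at 0 and a sum of 5526 TPM in Vehicle 1 against 108 to 556 TPM elsewhere. The intercalated calls numbered 0 after median-ratio scaling, 1 after quantile normalization, and the distal calls 0 under both. Without rescaling, 7.17% of all tested rows were called higher and 22.2% lower. Of the 12393 rows, 460 were lower after median-ratio scaling and 562 after quantile normalization. Endothelial markers were called higher in 2 of 8 and lower in 1, and thick ascending limb markers higher in 1 of 6. None was called of 6 proximal tubule, 5 red cell or 1 fibroblast and mural marker tested. The red cell list shares Slc4a1 with the intercalated cell list, so its sum is not of red cells alone. In LPS 2 Slc4a1 made up 135 of the red cell sum of 162 TPM. The proximal tubule sum was 27.4, 82.1 and 78.2 TPM in Vehicle and 76.8, 69.9 and 23.1 TPM in LPS, and red cell markers were highest in LPS 1, at 2410 TPM. The part of these cells in the metallothionein values was not tested.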

How the data were processed

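RNA libraries of cortical collecting ducts (3 h after Vehicle or LPS, 3 numbered samples per group, 3 libraries each) were made from polyA RNA with a low-input template-switching kit and tagmentation, per the labels' protocols. The deposited table holds TPM for 32883 genes, and the submitters' processing notes name STAR 2.7.9a, RSEM 1.3.3 and Rnor_6.0. The annotation release is not given in the sources used here. N in a column name was read as saline Vehicle and L as LPS. No other columns were present (0) and 0 library pairs were identical.

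Each gene's log2(TPM + 1) was taken per library, and the 3 libraries were averaged. The 12393 rows with a mean of at least 1 TPM were tested with limma 3.58.1 in R 4.3.3 (variance trend, two-sided, Benjamini-Hochberg), blocked on the sample number, since the treatment protocol calls the groups paired. After group means were removed, the members of a pair had correlations of 0.0622, -0.0175 and 0.0686 across genes. Fold changes on this scale understate those of low genes. TPM keeps no depth, so no counting interval is given. The fit was tested on simulated data.

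Promoter windows are from RefSeq (GRCr8), matched by symbol for 4 of the 6 genes. Metallothionein, transporter, regulator and marker lists, and the 6 genes, were chosen with earlier results of these data known. Named were the 6 genes and all other family members with a row. From each other list, the 4 tested members with the smallest p were named where a result turned on them. Among rows with a mean of at least 5 TPM, the 5 most correlated with Mt2A, Slc30a1 and Slc39a14 were named. Gclc, Selenow, Stat3, Nr3c1 and Hif1a were named after their values were seen. A few others under the rule are not reported here. Alternatives changed the block, the handling of libraries, the pseudocount (0.1 and 5), the filter (none and 5 TPM), the scaling, the variance trend and the samples. Leaving out the library that stood apart (mean r under the median by more than 3 MADs) was added after the data were seen.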

Additional observations from a re-analysis of the deposited data

How the results depend on the processing

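The summed metallothionein fold stayed between 9.62 and 16.8 over 7 alternatives. Without the replicate block no call of the 6 genes changed (Slc30a1 -0.89, adjusted p = 0.0238), but 4 Slc39 genes were lower, 1 Slc30 gene higher and 3 lower. With all 18 libraries and an estimated correlation, 5295 rows were lower, as were 4 Slc39 and 4 Slc30 genes. With the median of the libraries limma called 0 rows higher and 0 lower (1019 and 4167 at an unadjusted p under 0.05), 0 transporters of either family in either direction, and no member, at 3.05 for Mt1, 3.60 for Mt1m, 3.61 for Mt2A and -0.79 for Slc30a1. With no filter the counts were 18 and 2, with 0 transporters, and the members lost their calls at the reported sizes of 3.11, 3.78, 3.63 and -0.89. Pseudocount 0.1 moved Slc39a14 to -0.83, and pseudocount 5 left 1 Slc30 gene higher. With a mean of at least 5 TPM, 1 Slc39 and 2 Slc30 genes were lower. Median-ratio scaling gave 854 rows higher and 460 lower, and quantile normalization 800 and 562, against 889 and 2757. Under these scalings Slc30a1 stood at -0.50 and -0.55 and Mtf1 turned to 0.15 and 0.18, with 0 lower in either family and 1 Slc30 gene higher. Without the variance trend 1 Slc30 gene was higher. Without the library that stood apart 1699 rows were lower, with 1 Slc39 gene lower and 1 Slc30 gene higher.

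Leaving out a replicate gave 0 to 1004 rows higher and 0 to 3595 lower, with 0 and 0 without replicate 3 (738 and 1463 unadjusted by limma) and 419 and 296 without replicate 2. The differences ran from 2.81 to 3.61 in Mt1, 3.40 to 4.22 in Mt1m, 3.27 to 4.05 in Mt2A and -1.02 to -0.74 in Slc30a1, which was called only without replicate 1 (adjusted p = 0.0459). Slc39a14 ran from -0.56 to -0.25 and Mtf1 from -0.35 to -0.02. Slc39 genes called ranged from 0 to 1 higher and 0 to 3 lower, and Slc30 genes from 0 to 2 higher and 0 to 4 lower. The cause of these changes was not tested. Depth is unknown, so what it limits for Slc39a14, near 1 TPM, cannot be given.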
